A study of Mus musculus with 4 samples.

Results

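The myostatin and activin axis was described in mouse muscle through 10 genes: the ligand genes Mstn, Gdf11, Inhba and Inhbb, the receptor genes Acvr2a, Acvr2b and Acvr1b, the inhibitor genes Fst and Wfikkn2, and Mss51. The first 9 were chosen by their role in the pathway. Mss51 was picked for its low values in Nf1-KO, so its difference between the groups is given as a description, with no test. All 10 had a row among the 32868 gene names of the deposited tables, and none had more than 1 row. The muscle sampled was the tibialis anterior, on the front of the shin, of C57BL/6 mice at postnatal day 21. The Het group carried Nf1flox/+ and the Nf1-KO group Nf1flox/flox, and both carried the label Myf5+, which in such crosses stands for a Cre driver active in muscle precursors. Every library thus held a floxed Nf1 allele and the Myf5 allele, and no group without them was analysed here. Each group had 2 libraries. No label says that these came from separate animals, so the p-values measure the spread between these libraries, which may be technical.

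Myostatin, the product of Mstn, is a secreted factor of the TGF-beta family that restrains the growth of skeletal muscle. It is made as a precursor, freed by proteases, and held in check by binding proteins such as follistatin. The active ligand binds a type II receptor (ActRIIA or ActRIIB, from Acvr2a and Acvr2b), which recruits a type I receptor such as ALK4 (from Acvr1b), and the pair phosphorylates Smad2 and Smad3. Mss51 encodes a zinc finger protein of fast muscle mitochondria whose transcript is known to fall when myostatin is inhibited.

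Values are read as RPKM, read numbers divided by gene length and library depth. Comparisons between genes depend on the gene lengths used, which are not given. Levels, sums and ratios are of values as deposited, while the limma fits used values scaled between libraries unless stated. The libraries had estimated depths of 36500000 to 58200000 reads, and depth did not separate the groups. The labelled tissue was borne out by its markers, with Acta1, the actin of skeletal muscle fibres, at 12305.29 to 15930.4 RPKM. Nf1, the targeted gene, was at 1.09 and 1.01 RPKM in Het and 0.89 and 0.85 RPKM in Nf1-KO, a log2 fold change of -0.18 (limma adjusted p 0.041, and 0.094 for values that were not scaled between libraries). Of 10690 tested genes, 50.2% passed a limma adjusted p of 0.05, with 24.9% higher and 25.4% lower in Nf1-KO, so a changed gene is not rare here. On scaled values the groups did not overlap in 76.3% of tested genes.

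The sequence before the start site is shown for the 3 members with the lowest ratio of Nf1-KO to Het, which are Mss51, Gdf11 and Mstn. The stretches are the 250 bases upstream of the RefSeq start (build GRCm38.p6, 5′ to 3′ on the gene's strand), at chr14:20496902-20497151 (minus strand) for Mss51, chr10:128891719-128891968 (minus strand) for Gdf11 and chr1:53061390-53061639 (plus strand) for Mstn. Capitals mark E-boxes (CANNTG, the letters bound by MyoD and related factors) and Smad boxes (CAGAC), searched on both strands.
Mss51: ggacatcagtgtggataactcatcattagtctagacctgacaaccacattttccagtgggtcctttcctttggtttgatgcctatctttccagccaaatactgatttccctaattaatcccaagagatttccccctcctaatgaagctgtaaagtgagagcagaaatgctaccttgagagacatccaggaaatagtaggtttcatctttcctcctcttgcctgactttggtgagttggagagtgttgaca
Gdf11: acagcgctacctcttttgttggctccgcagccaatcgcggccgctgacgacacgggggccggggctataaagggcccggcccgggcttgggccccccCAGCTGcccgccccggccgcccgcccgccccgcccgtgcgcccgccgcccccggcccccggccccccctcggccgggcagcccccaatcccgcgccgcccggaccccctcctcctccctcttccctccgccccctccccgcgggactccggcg
Mstn: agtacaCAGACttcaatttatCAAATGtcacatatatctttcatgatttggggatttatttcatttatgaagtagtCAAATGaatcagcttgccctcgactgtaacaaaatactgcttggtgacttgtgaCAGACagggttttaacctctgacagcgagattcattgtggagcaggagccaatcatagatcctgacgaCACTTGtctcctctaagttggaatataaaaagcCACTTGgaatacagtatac

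The Mstn stretch held 4 E-boxes, whose first bases lay 229, 174, 52 and 19 bases before the start, and 2 Smad boxes, at 244 and 120 bases. Gdf11 held 1 E-box and no Smad box, and Mss51 held neither. Of 32851 promoters of the same length, 66.2% held an E-box and 42.2% a Smad box, so both are common letters. Of the 9 members with an entry in the table, 4 held an E-box and 3 a Smad box. The stretches also differed in base composition, with a GC content of 38.4% for Mstn, 43.2% for Mss51 and 81.2% for Gdf11, against a median of 52.4% over all promoters. These matches describe the letters and are not evidence of binding.

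The myostatin gene and its closest relative were both lower in Nf1-KO. Mstn (chromosome 1, 53061640 to 53068079, GRCm38) was at 11.65 and 12.25 RPKM in the Het libraries and at 7.61 and 8.15 RPKM in the Nf1-KO libraries. Its groups did not overlap, and the mean went from 11.9 ± 0.424 to 7.88 ± 0.382 RPKM (SD, n = 2), a ratio of 0.659. The log2 fold change on the log2(RPKM + 1) scale, used here for every such value unless stated, was -0.63 (standard error 0.0465, limma adjusted p 1.1e-04). Only 6.13% of the tested genes had a larger absolute log2 fold change than Mstn. Gdf11 (chromosome 10, 128882295 to 128891718), which encodes a ligand very similar to myostatin in its mature part, was at 1.83 and 2.17 RPKM in Het and at 0.72 and 0.68 RPKM in Nf1-KO. Both Nf1-KO libraries were low, at a ratio of means of 0.35. Its log2 fold change was -0.87 (standard error 0.072, limma adjusted p 1.8e-04), and 2.8% of tested genes had a larger one in absolute size. In the authors' deposited table, which has no pseudocount in its fold changes, the log2 fold changes were -0.71 for Mstn and -1.63 for Gdf11, so the fall of the less abundant gene is understated on the scale used here.

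The activin genes were much lower than Mstn in every library and ran the other way. Inhbb (chromosome 1, 119415465 to 119422248), which encodes the subunit of activin B, was at 0.09 and 0.12 RPKM in Het and at 0.48 and 0.39 RPKM in Nf1-KO. Inhba (chromosome 13, 16011851 to 16031621), which encodes the subunit of activin A, was at 0.32 and 0.15 RPKM in Het and at 0.56 and 0.33 RPKM in Nf1-KO. Neither reached 0.5 RPKM in 2 libraries, so neither was tested in the main comparison. For Inhbb the groups stood well apart, at a ratio of means of 4.14, while for Inhba the lowest Nf1-KO library exceeded the highest Het library by less than the spread within either group. With no filter on low values, the log2 fold change was 0.36 for Inhbb (limma adjusted p 0.013) and 0.20 for Inhba (0.31). The authors' deposited table gave mean normalized counts of 53.2 for Inhbb and 24.3 for Inhba, against 1272 for Mstn, so few reads stand behind both. It listed log2 fold changes of 1.94 for Inhbb (adjusted p 2.9e-05) and 0.86 for Inhba (0.33).

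**Figure D1:**
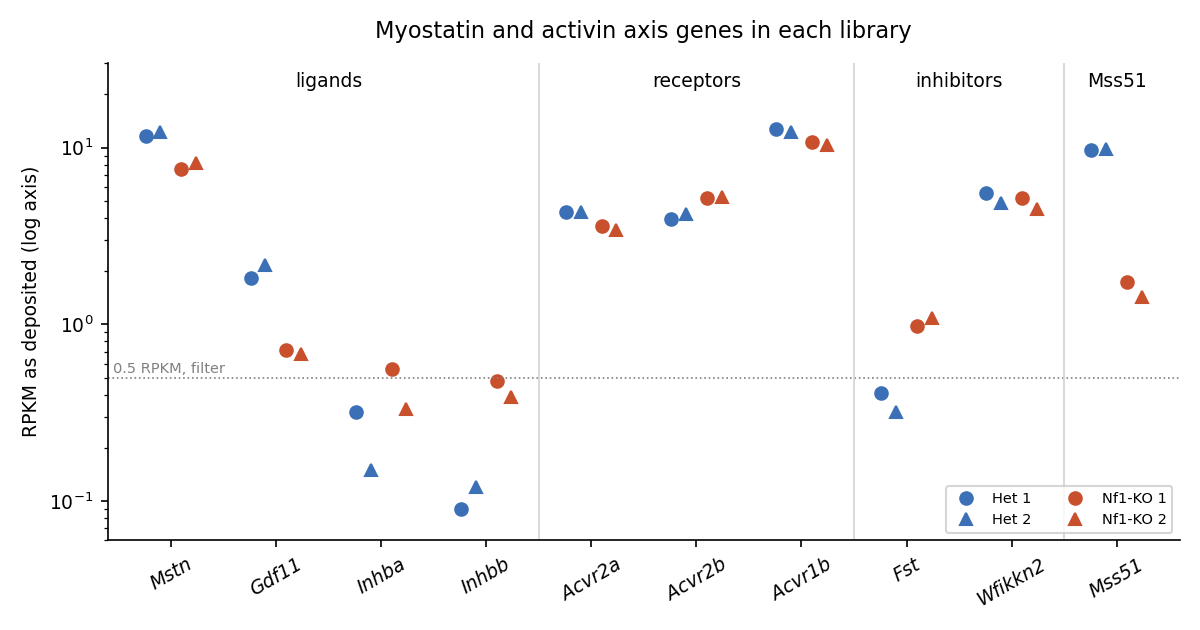
RPKM as deposited (log axis) of the 10 genes in each of the 4 libraries, grouped by role, with circles for replicate 1 and triangles for replicate 2. The dotted line is the 0.5 RPKM of the filter, which Inhba reached in 1 library and Inhbb in none, and Wfikkn2 is the gene whose groups overlap.

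Mstn remained the most abundant ligand transcript in both groups. It made up 83.9% and 83.4% of the summed RPKM of the 4 ligand genes in Het and 81.2% and 85.3% in Nf1-KO, ranges that overlap. The sum itself went from 13.9 and 14.7 RPKM in Het to 9.37 and 9.55 RPKM in Nf1-KO. Within the ligands the proportions shifted: there were 6.37 and 5.65 Mstn per Gdf11 in Het and 10.6 and 12 in Nf1-KO, and 28.4 and 45.4 Mstn per activin subunit transcript (Inhba plus Inhbb) in Het against 7.32 and 11.3 in Nf1-KO.

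Receptor genes changed less than ligand genes, and the pair of type II receptors moved in opposite directions. Acvr2a (chromosome 2, 48814109 to 48903269) was at 4.3 and 4.32 RPKM in Het and at 3.62 and 3.44 RPKM in Nf1-KO, a log2 fold change of -0.30 (standard error 0.0478, limma adjusted p 0.0027). An exon of Acvr2a overlaps one of Orc4 on the other strand, and no source used here says if reads were counted by strand. Acvr2b (chromosome 9, 119402118 to 119434995), whose product binds myostatin more tightly, was at 3.94 and 4.2 RPKM in Het and at 5.19 and 5.23 RPKM in Nf1-KO. Both Nf1-KO libraries were above both Het libraries, with a log2 fold change of 0.22 (standard error 0.0481, limma adjusted p 0.011). That size is ordinary in these libraries, since 37.0% of tested genes had a larger absolute log2 fold change. The call for Acvr2b was lost without Het replicate 1 (log2 fold change 0.17, limma adjusted p 0.063) and was not made in the authors' deposited table (log2 fold change 0.25, adjusted p 0.22).

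The ratio of the type II receptors shifted toward Acvr2b in Nf1-KO. There were 0.916 and 0.972 Acvr2b transcripts per Acvr2a transcript in Het and 1.43 and 1.52 in Nf1-KO. Their sum was 8.24 and 8.52 RPKM in Het and 8.81 and 8.67 RPKM in Nf1-KO. Which receptor transcript was more abundant depends on the gene lengths used, which are not given. The authors' deposited table gave mean normalized counts, not divided by length, of 373 for Acvr2b and 1096 for Acvr2a. The type I receptor gene Acvr1b (chromosome 15, 101174067 to 101213684) was the most abundant member on average in both groups. It was at 12.72 and 12.19 RPKM in Het and at 10.8 and 10.29 RPKM in Nf1-KO, a log2 fold change of -0.31 (standard error 0.0408, limma adjusted p 0.0013). The groups of Acvr1b did not overlap, although the difference was a small part of its level, with a ratio of means of 0.847.

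Of the inhibitors, follistatin was higher in Nf1-KO and Wfikkn2 did not pass the test. Fst (chromosome 13, 114452290 to 114458951), whose product wraps around activin and myostatin and blocks receptor binding, was at 0.41 and 0.32 RPKM in Het and at 0.98 and 1.09 RPKM in Nf1-KO. Its log2 fold change was 0.54 (standard error 0.0649, limma adjusted p 8.5e-04), and the ratio of means was 2.84. Fst reached the filter only through the Nf1-KO libraries, and the authors' deposited table gave it a mean normalized count of 93.5 and a log2 fold change of 1.42. An exon of Fst overlaps one of the antisense gene Gm47040. Wfikkn2 (chromosome 11, 94235956 to 94246005), which encodes a protein that binds myostatin, its propeptide and GDF11, was at 5.5 and 4.85 RPKM in Het and at 5.19 and 4.51 RPKM in Nf1-KO. Its libraries overlapped between the groups (log2 fold change -0.16, standard error 0.0769, limma adjusted p 0.14). It passed without Nf1-KO replicate 1 (log2 fold change -0.23, limma adjusted p 0.04). Wfikkn2 was the more abundant inhibitor transcript in every library.

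Relative to Mstn, both inhibitor transcripts stood higher in Nf1-KO. There were 0.0352 and 0.0261 Fst transcripts per Mstn transcript in Het and 0.129 and 0.134 in Nf1-KO. For Wfikkn2 the ratio was 0.472 and 0.396 in Het and 0.682 and 0.553 in Nf1-KO. In both ratios the groups did not overlap, and for Wfikkn2 this came with lower Mstn and little difference in Wfikkn2 itself. Single genes also did not overlap in 76.3% of those tested, on scaled values. With 2 libraries against 2, a two-sided exact permutation test gives no p below 0.333, so the ratios stand without a test.

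**Figure D2:**
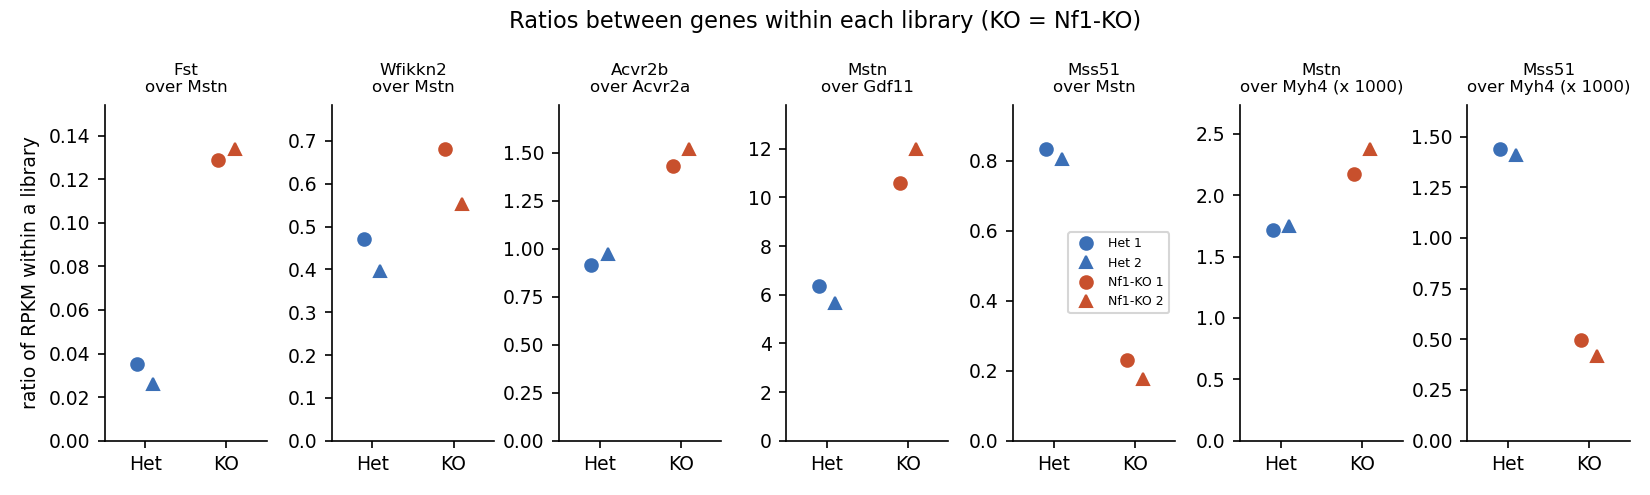
Ratios of RPKM within each library for 7 pairs of genes, with Het in blue and Nf1-KO in orange and 1 point for each library. The groups do not overlap in any panel, and on scaled values they do not in 76.3% of single tested genes. Mss51 was picked for its fall, and Fst reached the filter only through Nf1-KO, so the panels with them were set in part by that choice. Acvr2b per Acvr2a is 0.916 and 0.972 in Het and 1.43 and 1.52 in Nf1-KO.

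Together, 6 of the 7 tested members other than Mss51 passed the threshold, 2 higher (Fst and Acvr2b) and 4 lower (Mstn, Gdf11, Acvr2a and Acvr1b), beside 50.2% of all tested genes. Leaving out Fst, which had to be high in Nf1-KO to be tested, 5 of 6 passed, beside 49.0% of the 10281 tested genes that did not reach the filter through 1 group alone. With so few members these shares say little about the pathway as a whole, and the 2 members that were not tested are missing from them.

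Mss51 (chromosome 14, 20482867 to 20496901) had the lowest ratio of Nf1-KO to Het among the members, and it was picked for that. It was at 9.72 and 9.86 RPKM in Het and at 1.74 and 1.43 RPKM in Nf1-KO. The Het libraries nearly coincided, and the mean went from 9.79 ± 0.099 to 1.58 ± 0.219 RPKM (SD, n = 2), 6.18-fold lower. The log2 fold change was -2.14 (standard error 0.066), and 9 of the 10690 tested genes, Mss51 included, were at or below it. It was -2.73 in the authors' deposited table. In Het it was the third most abundant of the 10 genes, and in Nf1-KO the sixth. There were 0.834 and 0.805 Mss51 transcripts per Mstn transcript in Het and 0.229 and 0.175 in Nf1-KO. The difference in Mss51 was thus the larger of the pair.

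**Figure D3:**
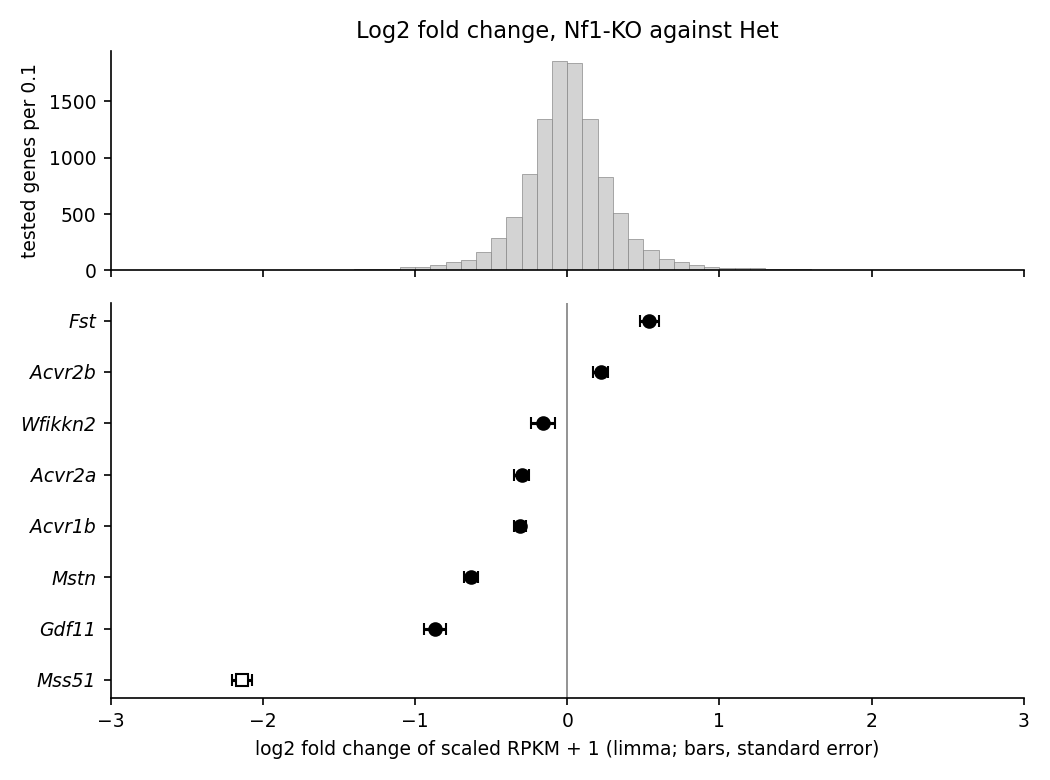
Top, the number of the 10690 tested genes in each 0.1 of log2 fold change, with values beyond 3 placed in the end bins. Bottom, the log2 fold change of the 8 members that passed the filter with its standard error (Wfikkn2 did not pass the test); the open square marks Mss51 at -2.14, which was picked for its fall and has no test, while Mstn is at -0.63 and Fst at 0.54.

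The order of the levels differed between the groups, with Mss51 at rank 3 in Het and 6 in Nf1-KO and Acvr2b at rank 6 in Het and 3 in Nf1-KO. In Het it ran Acvr1b, Mstn, Mss51, Wfikkn2, Acvr2a, Acvr2b, Gdf11, Fst, Inhba and Inhbb, and the libraries of Acvr1b and Mstn overlapped, as did those of Fst and Inhba. In Nf1-KO it ran Acvr1b, Mstn, Acvr2b, Wfikkn2, Acvr2a, Mss51, Fst, Gdf11, Inhba and Inhbb, with overlaps between Acvr2b and Wfikkn2 and between Inhba and Inhbb. Fst and Gdf11 also changed places. At the top of the list the levels were moderate for this tissue, since 23.1% of tested genes lay above Acvr1b in Het and 27.5% in Nf1-KO.

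Genes with the profile most like Mss51 were found by the distance between log2(scaled RPKM + 1) values, centred on each gene's mean over the 4 libraries, among 4712 genes of at least 5 RPKM. The 5 nearest were Sbk2 (distance 0.232), Nmrk2 (0.246), Pla2g7 (0.253), Pfkfb1 (0.329) and Csrp3 (0.343), with log2 fold changes from -2.05 (Pla2g7) to -1.80 (Csrp3). All 5 were more abundant than Mss51 in every library, and Nmrk2, which encodes a muscle nicotinamide riboside kinase, was at 46.33 and 47.13 RPKM in Het and 12.18 and 12.43 RPKM in Nf1-KO. For Mstn they were Sc5d (distance 0.0269), Kcng4 (0.0414), Leo1 (0.0474), Dusp10 (0.0641) and Azin1 (0.0647). Sc5d, an enzyme of cholesterol synthesis, was at 7.05 and 7.26 RPKM in Het and 4.45 and 4.82 RPKM in Nf1-KO. With 4 libraries in 2 groups, nearness of this kind mostly reflects a like difference between the groups.

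The rest of the pathway was described through 80 genes in 7 lists, of which 53 passed the filter. Of these, 37 (69.8%) passed the threshold, beside 50.2% of all tested genes, with 23 higher and 14 lower. The median log2 fold change over the 53 was 0.02, beside 0.0005 over all tested genes. Leaving out the 3 genes that reached the filter through 1 group alone, Cdkn2b and Timp1 among them, 34 of 50 passed, beside 49.0% of all genes chosen in that way. With values not scaled between libraries 32 passed, 24 higher and 8 lower, and over all genes 66.6% of the calls were then higher in place of 49.5%.

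Other ligands of the activin class had low listed values. Of 7 genes, Inhbc, Inhbe and Gdf1 were listed at 0 in all libraries, and only Inha, whose product pairs with the activin subunits to form the antagonist inhibin, was tested. It was at 1.94 and 1.25 RPKM in Het and at 1.13 and 0.94 RPKM in Nf1-KO (log2 fold change -0.39, limma adjusted p 0.045), a call lost without Het replicate 1 (0.12) or Nf1-KO replicate 2 (0.095). It was also lost with no variance trend (0.07), with no filter (0.18) and with values not scaled (0.07), and was not made in the authors' deposited table (0.075). Of the 8 genes of ligand processing, 4 were tested and 2 passed, a share close to the 50.2% of all tested genes. Ltbp3, whose product holds latent ligands in the matrix, was at 6.09 and 6.38 RPKM in Het and at 5.1 and 5.22 RPKM in Nf1-KO (log2 fold change -0.31, limma adjusted p 0.0018). Furin, a protease that cleaves the precursors, was at 11.47 and 12.08 RPKM in Het and at 14.64 and 13.71 RPKM in Nf1-KO (log2 fold change 0.16, limma adjusted p 0.027), and its call was lost without Het replicate 1 (0.15) or Nf1-KO replicate 1 (0.093), with no variance trend (0.053) and with no filter (0.097). Tll1, Tll2 and Bmp1, the proteases that free myostatin from its propeptide, were listed at 0.02 to 0.22 RPKM and were not tested.

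Among receptors and co-receptors of neighbouring branches, Tgfbr2 and Eng were higher in Nf1-KO and Bmpr1a was lower. Of 13 genes, 10 were tested and 5 passed, 3 higher and 2 lower, a share close to the 50.2% of all tested genes. Tgfbr2, the type II receptor for TGF-beta, was at 6.08 and 6.2 RPKM in Het and at 12.35 and 12.62 RPKM in Nf1-KO (log2 fold change 0.83, limma adjusted p 1.3e-05). Eng, a co-receptor best known from endothelial cells, was at 10.75 and 11.17 RPKM in Het and at 18.94 and 18.26 RPKM in Nf1-KO (log2 fold change 0.62, limma adjusted p 4.5e-05). The Bmp type I receptor gene Bmpr1a went the other way, from 22.92 and 22.37 RPKM to 18.61 and 18.58 RPKM (log2 fold change -0.36, limma adjusted p 1.6e-04). Tgfbr1, the alternative type I receptor for myostatin, was at 4.83 and 4.69 RPKM in Het and at 4.67 and 4.72 RPKM in Nf1-KO and did not pass (log2 fold change -0.09, limma adjusted p 0.12).

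Other extracellular antagonists were few. The counts here stand beside 50.2% of all tested genes past the threshold, with 24.9% higher. Of 11 genes, 3 were tested and 2 passed, both higher, and 1 passed with any library left out. Dcn (decorin, a matrix proteoglycan that can bind myostatin) was the most abundant, at 54.94 and 53.01 RPKM in Het and 62.09 and 61.86 RPKM in Nf1-KO (log2 fold change 0.10, limma adjusted p 0.017), and its call was lost without Het replicate 2 (0.096) and with no variance trend (0.079), and it was not made in the authors' deposited table (0.064). Fstl3 and Wfikkn1, close relatives of Fst and Wfikkn2, were listed at 0.01 to 0.08 RPKM.

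Among the genes that carry or brake the Smad2 and Smad3 signal, 15 of 16 were tested and 10 passed, 7 lower and 3 higher (4 lower and 3 higher with values not scaled between libraries). Of all tested genes, 50.2% passed and 25.4% were lower. Smad3 itself was at 22.3 and 22.17 RPKM in Het and at 16.4 and 15.91 RPKM in Nf1-KO (log2 fold change -0.53, limma adjusted p 4.2e-05). Its partner Smad2 was far lower, at 1.38 to 1.6 RPKM in the 4 libraries, and did not pass (limma adjusted p 0.50). Zfyve9, which encodes the anchor that presents Smads to the receptor, fell by 0.38 on the log2 scale, from 23.69 and 23.06 RPKM to 18.98 and 18.93 RPKM. Nedd4l, a ubiquitin ligase for activated Smads, fell by 0.46, from 2.08 and 2.14 RPKM to 1.32 and 1.4 RPKM.

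Smad7, the inhibitory Smad that the pathway induces against itself, was higher in Nf1-KO, at 1.52 and 1.63 RPKM in Het and 2.43 in both Nf1-KO libraries (log2 fold change 0.35, limma adjusted p 0.0025). Sptbn1, a spectrin that acts as a Smad adaptor, rose by 0.33 on the log2 scale. Changes in Smad4 (-0.13), Ski (-0.18) and Ppm1a (-0.14) were small, and all 3 lost their calls with values not scaled between libraries (limma adjusted p 0.34, 0.067 and 0.14). Smad4 also lost its call without Het replicate 1 (0.077) and without either Nf1-KO replicate (0.088 and 0.051). Smurf2, a ubiquitin ligase, did not pass at a log2 fold change of -0.09 (limma adjusted p 0.11). Fkbp1a, which encodes a regulator of type I receptors, was listed at 0.11 to 0.18 RPKM and was not tested.

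The Bmp branch, which opposes myostatin in muscle through other Smads, had 10 of 15 genes tested and 8 past the threshold, 6 higher and 2 lower. Of all tested genes, 50.2% passed and 24.9% were higher. Without Nf1-KO replicate 1, 5 genes of the branch passed, and with values not scaled between libraries 6 passed, all higher. Bmp6, a ligand of that branch, was at 3.85 and 4.09 RPKM in Het and at 7.52 and 7.54 RPKM in Nf1-KO (log2 fold change 0.70, limma adjusted p 6.3e-05). The targets Id1 and Id3 were at 7.67 and 7.58, and at 10.62 and 11.02 RPKM, in Het, and at 13.53 and 13.37, and at 18.03 and 19.18 RPKM, in Nf1-KO. Their log2 fold changes were 0.66 and 0.64, and no Het library reached a Nf1-KO library in either gene.

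Of 10 tested genes known to respond to Smad2 and Smad3, 8 were higher, 1 was lower and Tgfb1i1 did not pass, beside 50.2% of all tested genes past the threshold. Timp1, one of the higher genes, and Cdkn2b, the lower one, reached the filter only through the group where they were high, so their direction was set by it. Of the other 8 genes, 7 were higher. Col1a1, a collagen chain, was at 10.7 and 10.69 RPKM in Het and at 35.85 and 36.07 RPKM in Nf1-KO (log2 fold change 1.57, limma adjusted p 4.8e-07), and Col1a2 had a log2 fold change of 1.06. Timp1, an inhibitor of matrix proteases, was at 0.12 and 0.17 RPKM in Het and at 1.67 and 1.93 RPKM in Nf1-KO (log2 fold change 1.25). Cdkn2b, a cell cycle inhibitor, was the lower gene, at 0.84 and 0.95 RPKM against 0.37 and 0.44 RPKM. These genes also respond to other signals and are strong in fibroblasts, and the list was made with earlier results of these libraries known, so its direction is not independent evidence about the axis.

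**Figure D4:**
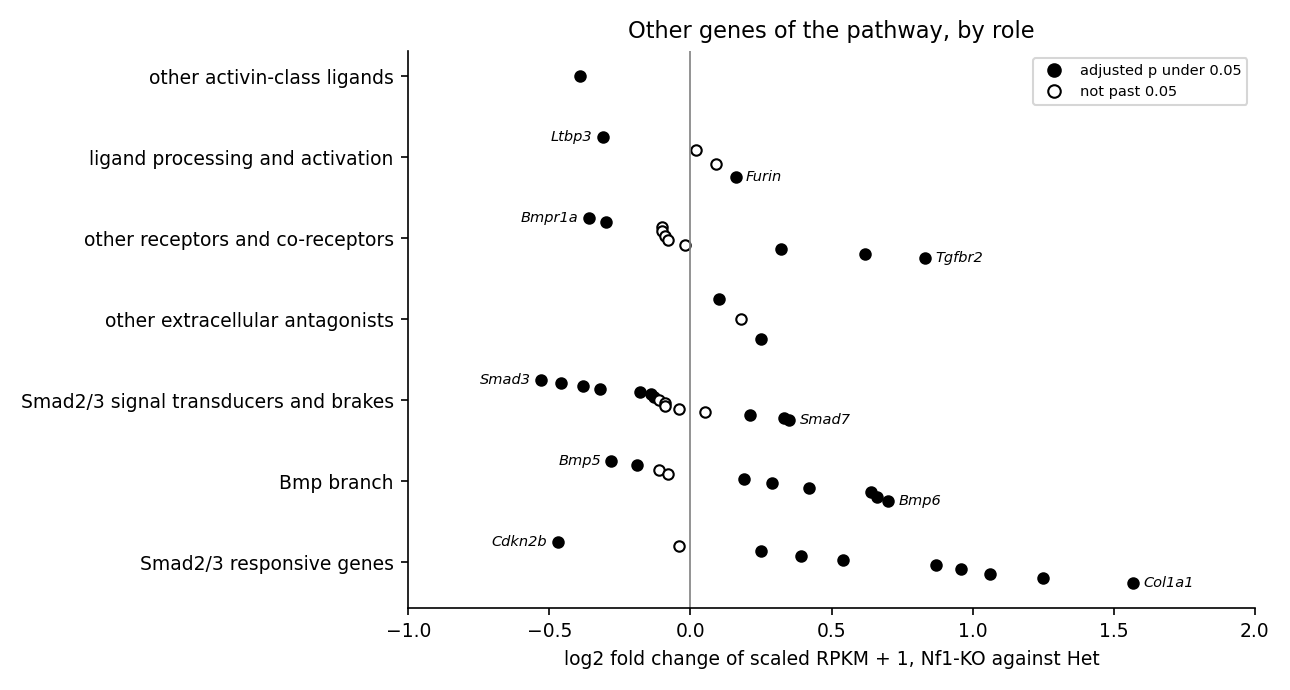
Log2 fold change (Nf1-KO against Het, scaled RPKM + 1) of each tested gene of the 7 pathway lists, filled where the limma adjusted p was under 0.05. The Smad transducers lie mostly left of 0 down to Smad3 at -0.53, and the responsive genes mostly right of 0 up to Col1a1 at 1.57; the lowest and highest gene are named in lists of at least 4 tested genes.

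Fibre type markers differed between the same libraries. Both Mstn and Mss51 are known to be stronger in fast glycolytic fibres. The 10 fast fibre genes summed to 57047 and 57413 RPKM in Het and to 43676 and 43444 RPKM in Nf1-KO. Beside 50.2% of all tested genes past the threshold (24.9% higher and 25.4% lower), 9 were lower and Myh1 was higher. None was listed at 0. Tnnt3 and Tnni2, the most abundant of them, had log2 fold changes of -0.29 and -0.18. The 10 slow and oxidative fibre genes summed to 589 and 612 RPKM in Het and to 1064 and 1043 RPKM in Nf1-KO. Past the threshold 9 were higher, among them Myh2 (0.77) and Myl3 (0.17). Myh2 made up most of the sum, at 448.14 and 471.18 RPKM in Het and 851.15 and 828.89 RPKM in Nf1-KO. Myh7 did not pass (log2 fold change -0.16, limma adjusted p 0.066), at 1.53 and 1.66 RPKM in Het and 1.47 and 1.36 RPKM in Nf1-KO. Per 1000 transcripts of Myh4, the myosin of the fastest fibres, there were 1.72 and 1.75 Mstn transcripts in Het and 2.17 and 2.38 in Nf1-KO, and 1.44 and 1.41 Mss51 transcripts in Het and 0.496 and 0.417 in Nf1-KO. By ratio of means, Mstn (0.659) was thus reduced less than Myh4 (0.503), and Mss51 (0.162) more. The other fast fibre genes lay on both sides of Mstn. Pvalb (0.323), Actn3 (0.418), Mybpc2 (0.461) and Myl1 (0.548) were reduced more than Mstn. Tnnc2 (0.856), Tnnt3 (0.871), Atp2a1 (0.89) and Tnni2 (0.941) were reduced less, and Myh1 was higher. The part of fibre type in the values of either gene was not tested, and in whole muscle fewer fibres of a type and less RNA per fibre cannot be told apart.

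Markers of other cell types, in which Fst, Inhba, Inhbb and the receptors are also expressed, moved as well. The 10 fibro-adipogenic and fibroblast genes, led by Gsn and Dcn, summed to 187 and 182 RPKM in Het and to 223 and 224 RPKM in Nf1-KO. Past the threshold were 7 higher and 1 lower, beside 50.2% of all tested genes (24.9% higher and 25.4% lower). Macrophage genes summed to 14.7 and 14.3 RPKM in Het and to 36.0 and 36.1 RPKM in Nf1-KO, mostly through Lyz2, with 5 of 7 tested genes higher, C1qb among them, and Adgre1 listed at 0. Schwann cell genes summed to 11 and 11.1 RPKM in Het and to 26.7 and 24.9 RPKM in Nf1-KO, with all 6 tested genes higher, among them Prx at 0.95 and 0.86 RPKM against 1.96 and 1.74 RPKM.

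Endothelial and satellite cell genes differed less. The former, led by Cdh5 and Pecam1, summed to 89.3 and 90.2 RPKM in Het and to 99.4 and 97.6 RPKM in Nf1-KO, with 3 of 8 higher and 2 lower. The latter, led by Cdh15 and Chodl, summed to 9.35 and 9.2 RPKM and to 10.7 and 10.8 RPKM, with 2 of 4 tested genes higher. Both counts stand beside 50.2% of all tested genes past the threshold, with 24.9% higher and 25.4% lower. Adipocyte genes summed to 178 and 185 RPKM in Het and to 268 and 266 RPKM in Nf1-KO through Fabp4 and Cfd, which other cells also express, while Adipoq did not pass. Tendon genes summed to 16.3 and 15.8 RPKM and to 13.2 and 12.8 RPKM, with Thbs4 lower and Fmod higher. The part of these cell types in the values of Fst, Inhbb and the responsive genes was not tested.

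**Figure D5:**
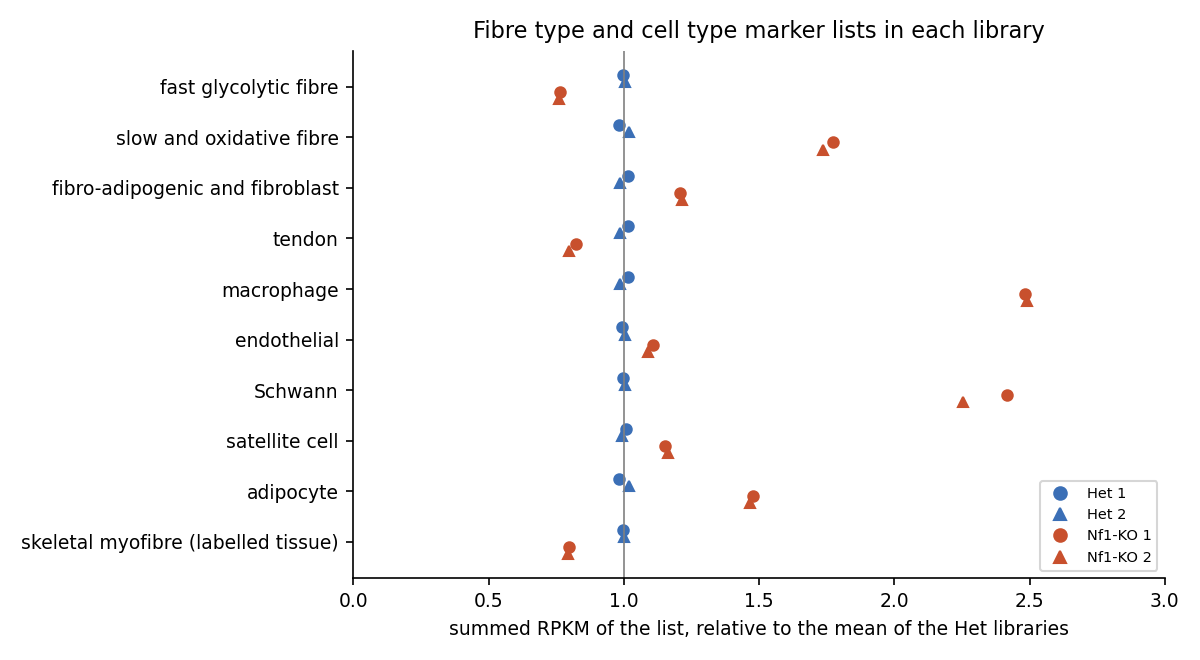
Summed RPKM of each fibre type and cell type marker list in each library, divided by the mean of the Het libraries. The macrophage and Schwann lists stand farthest to the right in Nf1-KO (36.0 and 36.1, and 26.7 and 24.9 RPKM), and the fast glycolytic, myofibre and tendon lists lie below the Het mean.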

How the data were processed

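RNA-seq of tibialis anterior muscle gave 1 table of 34682 rows per library. Its RPKM values were made by the authors; the unit is read from the values, since neither the headers nor the labels name it. STAR 2.4.2a, DESeq2 and the build mm9 are named in the submitters' processing notes, without their roles. Per the file headers, the authors' deposited comparison table has the layout of DESeq2 output: a signal value (the mean count after division by size factors), a log2 fold change, its standard error and a test score, and a p-value with its adjusted value. Counting program, annotation and strandedness are not given in the sources used here. Positions are of GENCODE M21 (GRCm38), not of mm9.

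Rows with a number for a name (33) were dropped, and where a name was repeated the copy with the largest mean was used. Depth was estimated from the steps of low values in transcripts under 400 bases and is approximate. Replicates differed by more than counting noise (median squared deviation 0.971 and 0.977 times the counting variance, where counting alone gives a lower median), with a median coefficient of variation of 2.0% in Het and 1.87% in Nf1-KO.

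Genes that reached 0.5 RPKM in 2 or more libraries entered one fit across all genes with limma 3.58.1 (R 4.3.3, variance trend, no covariate) on log2(RPKM + 1), which understates the change of low genes, and p-values were two-sided with Benjamini-Hochberg adjustment at 0.05. Values were first scaled by a trimmed mean of log ratios (trimming per tail 30% on the ratio and 5% on abundance; factors 0.969, 0.967, 1.03 and 1.03). The fit was tested on simulated data. Named by a fixed rule were all members, per pathway list the up to 3 called genes with the largest change plus transducers and antagonists of at least 5 RPKM, per fibre type and cell type list the 2 most abundant genes, and the 5 nearest profiles. Others (Smad2, Smad7, Tgfbr1, Fkbp1a, Cdkn2b, the Bmp1 and Tll proteases, Fstl3, Wfikkn1, Tgfb1i1, Adipoq, Adgre1, Inhbc, Inhbe, Gdf1, Myh1, Myh4 and Myh7) were named after their values were seen. The same holds for Actn3, Pvalb, Mybpc2, Myl1, Tnnc2 and Atp2a1. Members, lists and tests were chosen with earlier results of these data known. Of the genes the rule names, 2 are not reported here. Alternatives covered the pseudocount, filter, scaling, variance trend, replicate block, repeated rows, threshold and each library left out.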

Additional observations from a re-analysis of the deposited data

How the results depend on the processing

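Of 101 values of the 7 tested members other than Mss51 under alternatives, 96 kept both sign and call, 3 lost a call (all Acvr2b: without Het replicate 1, at a threshold of 0.01, and in the authors' deposited table) and 2 gained one (both Wfikkn2), with 0 reversed. Wfikkn2 passed without Nf1-KO replicate 1 (-0.23, limma adjusted p 0.04), and its adjusted p ran from 0.036 to 0.54. A gene that fell below the filter under an alternative gave no value and was not counted as a lost call. Fst was not tested without either Nf1-KO replicate, so its call was not checked there. Neither Fst nor Gdf11 was tested with 1 RPKM required in every library. Of 301 values of named pathway genes, 276 were unchanged in that sense and 25 lost a call. The log2 fold change ran from -0.71 to -0.54 for Mstn, -1.63 to -0.79 for Gdf11, 0.49 to 1.42 for Fst and -2.73 to -2.04 for Mss51, where smaller pseudocounts and the authors' deposited table gave the larger sizes. With each library left out, 5 to 6 of the members, 29 to 34 of the pathway genes and 4235 to 4471 of all genes were called. Same-numbered libraries did not deviate together (correlation of deviations -0.0179 over 10690 genes). With the replicate block, 5236 genes were called in place of 5371 and 7 members in place of 6, the added one being Wfikkn2 (-0.16, limma adjusted p 0.036). Low levels (0.09 to 0.56 RPKM) limit what can be said of Inhba and Inhbb.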
